A study of Saccharomyces cerevisiae with 14 samples.

Results

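The genes described here are the annotated yeast genes that gave a low mean signal in strains with full-length histones. They were chosen from the probe sets that are annotated to a single gene, with the probe set of the highest mean signal standing for a gene that has several. A gene was called quiet when its mean signal lay between 20 and 100 in both wild-type groups, and 257 of 5656 genes met that rule. The wild-type signals therefore chose the members, and those levels are given as a description only.

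Expression was measured on 14 one-colour oligonucleotide arrays of total RNA from Saccharomyces cerevisiae in mid-log growth. A deletion of residues 1 to 28 from the H3 tail defined the H3del strain, measured on 4 arrays, and the matching strain with full-length H3 (H3WT) was measured on 4 more. These H3 strains kept the histone gene on a LEU2-marked plasmid and grew in complete synthetic medium without leucine and uracil. A deletion of residues 2 to 26 from H4 defined the H4del strain, with 3 arrays, and its match with full-length H4 (H4WT) also had 3. The H4 strains kept their histone gene on a TRP1-marked plasmid and grew without tryptophan and uracil. The strains are congenic, so each deletion was compared with its own wild type, and the log2 fold changes of the comparisons share no array. The spread of each gene was estimated from all 14 arrays together, so the p-values of both comparisons draw on it. Whether a group's arrays stand for separate cultures or clones is not stated in the labels, so the p-values reflect array-to-array spread, which may be technical.

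The amino-terminal tails of H3 and H4 reach out of the nucleosome, and many of the residues that cells acetylate or methylate lie in them. In growing yeast they take part in keeping several gene classes silent or nearly so, among them genes near telomeres, genes of meiosis and spore formation, and genes for carbon sources other than glucose. Meiosis and sporulation genes are normally switched on only when diploid cells starve, through the early regulator Ime1 and the middle-phase activator Ndt80. Small nucleolar RNAs (snoRNAs), which also occur among the members, are abundant noncoding RNAs that guide the chemical modification of ribosomal RNA.

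Of the 257 quiet genes 219 were protein-coding, 23 encoded snoRNAs, 9 transfer RNAs (tRNAs) and 2 spliceosomal RNAs (snRNAs), and 4 were pseudogenes. Protein-coding genes made up 85.2% of the members, against 99.5% of the 1899 genes with wild-type means of 500 to 2000 (mid-level genes) and 97.0% of all 5656. SnoRNA genes made up 8.95%, 0.316% and 1.01% of the same groups. Among nuclear protein-coding members 41 (19.1%) had no gene name beyond the systematic one, against 5.93% of the mid-level genes. The 10 outermost genes of each chromosome arm held 17 members (7.91%), against 2.28% of the mid-level genes. The median annotated length was 1188 bases for protein-coding members and 1365 for mid-level ones. A band of signal compares different probe sets, whose brightness also depends on how well each binds, so a low signal does not give the number of transcripts. These shares are descriptions with no test.

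The genes nearest the bounds show what the rule kept. Just above 20 lay the mitochondrial intron gene AI5_ALPHA, with means of 21.4 in H3WT and 20.3 in H4WT, and SET4, with 23.5 and 20.4. Just below it lay SNR74 (19.9 and 22) and ZNF1 (21.7 and 19.7). Just under 100 lay ARP10 (93.8 and 99.8) and SIP4 (47.3 and 99.8), and just above it YPR196W (92.2 and 100.2) and VPS51 (100.4 and 86.9).

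The median signal of the quiet genes differed between the arrays, and since the wild-type arrays chose these genes it is given as a description. Their median signal was 57.9, 58.5, 68.6 and 62.6 on the H3del arrays and 42.6, 43.9, 49.3 and 48.9 on the H3WT arrays, so every H3del array lay above every H3WT array. It was 78.5, 71.0 and 81.2 on the H4del arrays and 55.0, 46.0 and 56.7 on the H4WT arrays, again without overlap. The group means of these medians were 61.9 ± 4.93 (SD, n = 4) for H3del, 46.2 ± 3.42 (n = 4) for H3WT, 76.9 ± 5.28 (n = 3) for H4del and 52.6 ± 5.75 (n = 3) for H4WT. The 337 genes chosen by H4WT alone had medians of 62.2, 61.4, 71.1 and 64 on the H3del arrays and 42.9, 44.7, 49.3 and 49.2 on the H3WT arrays. The 356 chosen by H3WT alone had 95.7, 90 and 100.75 on the H4del arrays and 72, 57.7 and 65.9 on the H4WT arrays. In these sets, whose choice left the compared arrays out apart from the choice of probe set, the groups did not overlap either. A mean signal of the quiet genes over 100 was reached by 54 members in H3del and by 88 in H4del, one over 200 by 11 and 16, and one over 500 by SPO75 alone in each.

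The low end of the arrays moved with the same groups. The 10th percentile of all probe sets was 16.8 to 17.8 on the H3del arrays and 12.1 to 12.9 on the H3WT arrays, and 22.7 to 27.8 on the H4del arrays and 12.1 to 20.1 on the H4WT arrays. The medians of 13 negative control probe sets overlapped for H3, at 8.6 to 14.1 against 7.3 to 10.7, and lay apart for H4, at 11.7 to 15.6 against 8.4 to 10.2. The 694 probe sets that the annotation assigns to no gene and that met the same signal rule had medians of 51.0 to 53.8 on the H3del arrays against 39.8 to 43.9 on the H3WT arrays, and of 66.2 to 83.9 on the H4del arrays against 43.0 to 55.7 on the H4WT arrays. The 2% trimmed mean of each array was 1501, so the deposited signals had already been scaled to a common level. The part of this low-end shift in the results was not tested. The main counts are therefore also given after quantile normalization, which gives all arrays one distribution, and some also with the low end of each array aligned. The ratio of 3' to 5' signal for TBP averaged 4.21 in H3del against 2.79 in H3WT, with overlapping arrays. It averaged 3.88 in H4del against 3.01 in H4WT, where the lowest H4del array (3.21) lay just over the highest H4WT array (3.20). For actin the means were 2.44 against 1.90 for H3 and 1.75 against 1.65 for H4, with overlap in both. What these ratios contribute to the results was not tested.

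**Figure D1:**
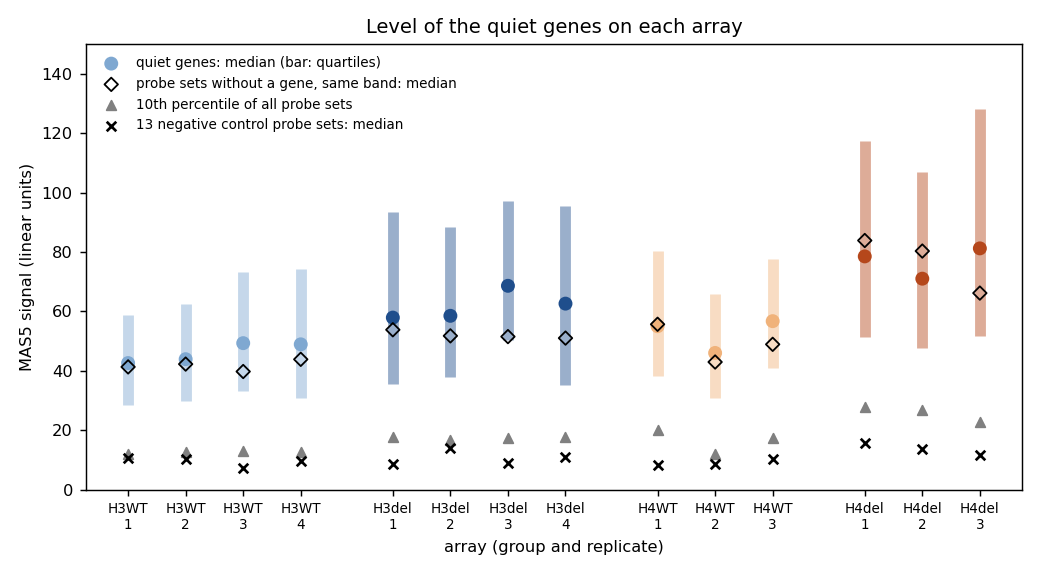
Signal of the quiet genes on each of the 14 arrays in linear MAS5 units, with circles for the median of the 257 genes and bars for the quartiles, open diamonds for the median of 694 probe sets without a gene in the same band, triangles for the 10th percentile of all probe sets and crosses for the median of 13 negative controls. The quiet-gene medians of H3del (57.9 to 68.6) and H4del (71.0 to 81.2) lie above those of H3WT (42.6 to 49.3) and H4WT (46.0 to 56.7), and the 10th percentiles lie higher in the deletions too.

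In H3del 51 of the 257 quiet genes (19.8%) were higher than in H3WT and 0 were lower, by limma with Benjamini-Hochberg adjustment over all 9275 probe sets and a threshold of 0.05. Over all probe sets 5.66% were higher and 1.78% lower. H3WT helped to choose the members, so nothing is read from that difference. At an unadjusted p under 0.05, 80 members were higher and 5 lower. The median log2 fold change of the members was 0.24, with quartiles of 0.01 and 0.70, and 196 of 257 were above 0, whereas the median over all probe sets was 0.06. All log2 fold changes here are on the scale log2(signal + 16.9), which understates the change of dim genes.

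The genes with a mean of 20 to 100 in H4WT, whatever their level in H3WT, were chosen without the H3 arrays apart from the choice of probe set. There were 337, among them all 257 members. In H3del 68 of them (20.2%) were higher and 0 lower, with a median of 0.25, against the background of 5.66%. After quantile normalization 39 of the 337 (11.6%) were higher and 3 lower, against 4.29% and 2.23% of all probe sets, and the median was 0.01. The share called higher stayed above the background, and the median moved to about 0.

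The shares in the other bands of wild-type signal are a description, because the same wild-type arrays define the bands and enter the change. In the genes under 20 in both wild types 5.49% of 91 were higher in H3del, in those at 100 to 500 6.55% of 1176, in the mid-level genes 2.47% of 1899 and in those over 2000 1.37% of 1465. The mid-level genes moved about as often down as up, with 47 higher and 49 lower (2.58%) and a median of -0.02. With the replicate number as a block these became 122 higher and 120 lower, and after quantile normalization 61 and 58. After quantile normalization the higher shares from the dimmest band to the brightest were 4.4%, 10.9%, 4.17%, 3.21% and 1.64%. Within the hybridization days that held both groups the quiet-gene median was 0.31 (day 1), 0.27 (day 4) and 0.20 (day 5), and the mid-level median lay between -0.02 and -0.01. All 51 members called higher were above 0 on each of these days, but the same arrays made those calls, so nothing is read from it. With the day as a block 63 members were higher and 3 lower, against 10.4% and 6.21% of all probe sets.

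**Figure D2:**
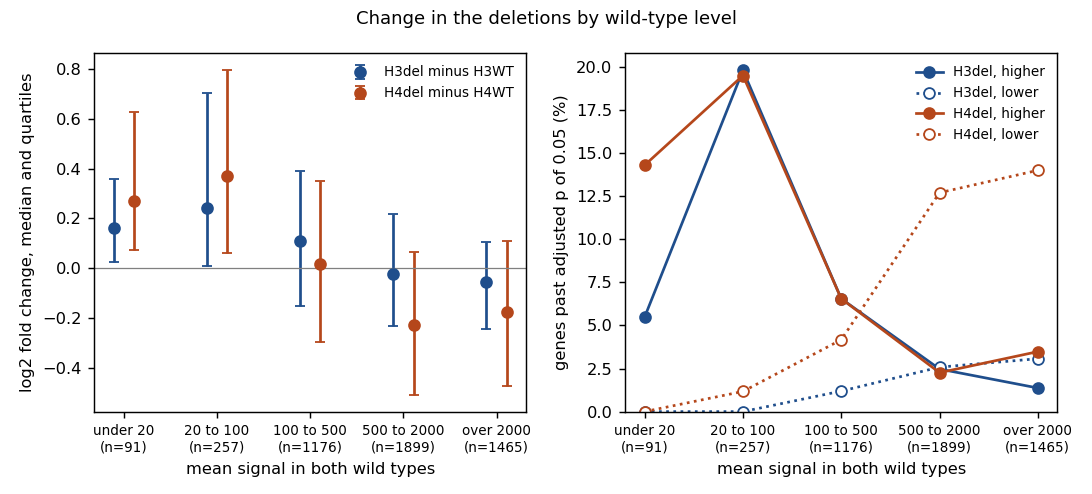
Left, median log2 fold change with quartiles (bars) of genes grouped by their mean signal in both wild types, for H3del minus H3WT and H4del minus H4WT. Right, the percent of each group past an adjusted p of 0.05, filled circles for higher and open circles for lower. At 20 to 100 the higher shares are 19.8% and 19.5%, at 500 to 2000 they are 2.47% and 2.26%, and the lower share of H4del there is 12.7%.

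Genes of spore formation led the rises in H3del. The list of middle and late sporulation and spore wall genes had 11 quiet members, of which 8 rose and 0 fell. Over all probe sets 5.66% rose and 1.78% fell, and of the 257 quiet genes 19.8% rose. The wild types helped to choose the members of every list and gene type. Nothing is read from their shares against all probe sets, here or below. Of all 38 measured genes of the list, whatever their level, 18 rose and 0 fell, so genes outside the band rose too. The median log2 fold change of the 11 quiet members was 1.62 beside 0.06 for all probe sets. After quantile normalization 8 were also called higher, against 4.29% of all probe sets, with a median of 1.32. All 51 rises were in protein-coding members (23.3% of 219), of which 28 were higher and 2 lower after quantile normalization. The samples are bulk RNA, in which a few cells with a gene fully on and many cells with a weak signal cannot be told apart.

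SPO75, which is required for spore formation, changed most. Its signal was 465.7, 597.9, 473.1 and 508.4 on the H3del arrays and 45.1, 36.0, 47.5 and 43.9 on the H3WT arrays. The log2 fold change was 3.13 ± 0.18 (SE; adjusted p = 7.16e-08), and the mean signals differed 11.9-fold, with no overlap. SPO74, a part of the spindle pole body's meiotic outer plaque, which starts the spore membrane, read 224.8, 247.9, 226.5 and 301.8 on the H3del arrays against 61.1, 39.5, 38.7 and 61.7. Its change was 2.00 ± 0.20 (adjusted p = 1.75e-05), and its lowest H3del array was over the highest H3WT array.

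The septins SPR3 and SPR28, which form a scaffold on the growing spore membrane, both rose. SPR3 read 160.9, 191.5, 255.5 and 343.8 on the H3del arrays and 45.2, 39.8, 60.2 and 77.3 on the H3WT arrays, a change of 1.79 ± 0.26 (adjusted p = 0.000423). SPR28 read 224.0, 207.2, 205.8 and 210.6 against 53.1, 65.4, 42.8 and 71.8, a change of 1.62 ± 0.18 (adjusted p = 4.03e-05). Neither gene's groups overlapped, and the H3del arrays of SPR28 lay close together while those of SPR3 spread over a wide range. Genes of the spore wall rose as well. OSW1 had a change of 1.70 ± 0.25, SPO19 of 1.50 ± 0.21, LOH1 of 1.85 ± 0.25 and SPS22 of 1.39 ± 0.19, with adjusted p between 0.000271 and 0.000556. One H3WT array of OSW1 was at 10 and the other three at 24.6 to 48.9, all under the lowest H3del array at 101.2. The 3 members of the list that did not pass were AMA1, the meiotic activator of the anaphase-promoting complex (0.11), DIT1, an enzyme of the dityrosine layer (0.58), and SPO77 (0.73).

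Of 11 quiet genes of early meiosis 4 rose in H3del and 0 fell, beside 5.66% and 1.78% of all probe sets, with a median of 0.50. Of all 28 measured genes of this list, whatever their level, 7 rose and 0 fell. After quantile normalization the count of rises among the 11 was 2, against 4.29% of all probe sets, and the median 0.23. REC8, the meiotic cohesin subunit, had a change of 1.07 ± 0.19 (adjusted p = 0.00236) and SPO13, which sets the pattern of the first meiotic division, 1.18 ± 0.22 (adjusted p = 0.00263). REC102, needed for meiotic DNA breaks, had 1.02 ± 0.25 (adjusted p = 0.0222) and SAE3, which helps to load the recombinase Dmc1, 1.11 ± 0.28 (adjusted p = 0.0249). The calls of REC8 and SPO13 were kept whichever array was left out, whereas that of REC102 was lost without any of 6 of the 8 arrays (adjusted p up to 0.0748) and that of SAE3 without H3del replicate 1 or 4 or H3WT replicate 2 (up to 0.0758). The second probe set of SAE3 gave 1.77 in H3del (adjusted p = 6.03e-05). The other 7 genes of the list ran from -0.33 for MER1, a meiotic splicing factor, to 0.81 for NDJ1, which tethers meiotic telomeres. ZIP1 and ZIP2, which act in chromosome synapsis, had 0.50 and 0.35.

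**Figure D3:**
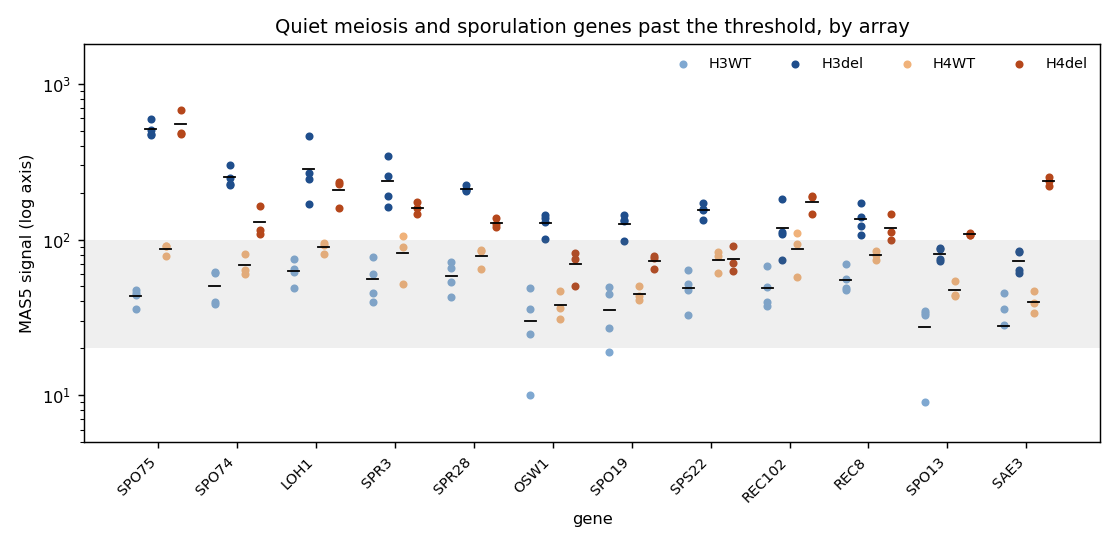
Signal on a log axis (linear MAS5 units) of the 12 quiet genes of the sporulation and early meiosis lists past the threshold in at least 1 deletion. Each array is 1 point, with the group mean as a line and the band of 20 to 100 in grey. For SPO75 the H3del arrays (465.7 to 597.9) and H4del arrays (477.7 to 683.1) lie far above both wild types, and SPS22 is higher in H3del alone.

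Genes of carbon use had few members in the band. Of 4 quiet genes of gluconeogenesis and non-fermentable carbon 3 rose in H3del, beside 5.66% of all probe sets, with a median of 0.99. After quantile normalization 1 rose, beside 4.29% of all probe sets. SFC1, the mitochondrial succinate-fumarate carrier, read 173.3, 159.1, 164.2 and 184.0 on the H3del arrays against 46.5, 56.1, 46.1 and 48.9 on the H3WT arrays, with a change of 1.50 ± 0.19 (adjusted p = 0.000173) and no overlap. The zinc-cluster activators of this pathway, SIP4 and CAT8, had changes of 1.18 ± 0.25 (adjusted p = 0.00866) and 0.80 ± 0.22 (adjusted p = 0.0366). The CAT8 call was lost without any of 6 of the 8 arrays (adjusted p up to 0.118), and after quantile normalization CAT8 and SIP4 had adjusted p of 0.19 and 0.0687. YAT1, an outer mitochondrial carnitine acetyltransferase, was at -0.04. The galactose genes GAL1 and GAL2 had 1.16 ± 0.34 (adjusted p = 0.0498) and 0.62 ± 0.17 (adjusted p = 0.0364), and neither passed after quantile normalization or with the low end of the arrays aligned. In H4del 1 of the 4 genes of gluconeogenesis and non-fermentable carbon rose (SIP4) and 0 fell, beside 8.87% and 6.73% of all probe sets. CAT8 was at -0.49 there (adjusted p = 0.208), with every H4del array under every H4WT array. After quantile normalization 0 of these 4 were higher in H4del and 1 was lower, against 6.7% and 6.49% of all probe sets.

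CIT3, a mitochondrial citrate and methylcitrate synthase, had 539.6, 573.8, 258.3 and 515.3 on the H3del arrays and 76.9, 90.0, 104.5 and 89.5 on the H3WT arrays. Its change was 2.13 ± 0.28 (adjusted p = 0.000167), and H3del replicate 3 was the lowest array but still over every H3WT array. Another 4 members completed the 10 with the largest rise. SRL4 (1.73 ± 0.21), the spore-specific water channel AQY1 (1.68 ± 0.37) and the putative transporter PUL3 (1.64 ± 0.22) kept their calls whichever array was left out, with adjusted p of 0.000116, 0.0109 and 0.000271. YNL194C, a membrane protein related to Sur7, had 1.76 ± 0.51 (adjusted p = 0.0495) and lost its call without any of 7 of the 8 arrays (adjusted p up to 0.138). Its H3WT signals were 42.1, 56.7, 117.3 and 47.6, with replicate 3 above the band.

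Other gene classes held few quiet genes. Of the 2 genes of mating type and a-specific functions AGA2, a subunit of a-agglutinin, rose in H3del with 0.77 ± 0.19 (adjusted p = 0.0191), and it did not pass after quantile normalization. The pheromone receptor STE2 was at 0.24. None of 2 genes of peroxisomal fatty acid oxidation, and none of the single hexose transporter (HXT8), flocculin (FLO5) and aryl-alcohol dehydrogenase (AAD6), passed in either deletion. No member of the lists for allantoin and proline use, seripauperins and DAN/TIR cell wall proteins, the COS family, pheromone-induced genes, DNA damage, thiamine or vitamin B6 lay in the band. Of the 17 members among the outermost genes of the arms 2 rose in each deletion (11.8%, beside 5.66% of all probe sets in H3del and 8.87% in H4del), and 1 in each after quantile normalization.

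In H4del 50 of the 257 quiet genes (19.5%) were higher than in H4WT and 3 (1.17%) were lower. Over all probe sets 8.87% were higher and 6.73% lower, and since H4WT helped to choose the members nothing is read from that difference. The median log2 fold change of the members was 0.37, with quartiles of 0.06 and 0.80, and 203 of 257 were above 0, beside a median of 0.05 over all probe sets. The 356 genes at 20 to 100 in H3WT, chosen without the H4 arrays apart from the choice of probe set, gave 65 higher (18.3%) and 6 lower (1.69%), with a median of 0.39. After quantile normalization 34 of them (9.55%) were higher and 14 lower, against 6.7% and 6.49% of all probe sets. Among the members the split was then 20 higher and 7 lower, with a median of -0.01, and with the low end of the arrays aligned it was 44 and 6, against 7.26% and 7.49% of all probe sets.

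The H4del counts depended on single arrays. Without H4WT replicate 2, which was alone on its hybridization day and had the lowest 10th percentile of the H4 arrays, 28 members were higher, and 39 of the 356 genes quiet in H3WT. Without H4del replicate 3 there were 33. With the day as a block, in which H4WT replicate 2 does not enter, 54 were higher and 4 lower, against 11.7% and 11.5% of all probe sets. The quiet-gene median was 0.36 on both days that held both groups (day 2 and day 4). All 50 called members were above 0 on each, but their calls came from these arrays too and nothing is read from it. The mid-level genes had more calls down than up in H4del, with 43 higher (2.26%), 242 lower (12.7%) and a median of -0.23. Over all probe sets 6.73% were lower. After quantile normalization the mid-level counts were 84 and 173, with a median of -0.10, and with the replicate number as a block they were 106 and 465.

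SnoRNA genes made up 17 of the 50 rises in H4del. Of 23 quiet snoRNA genes 17 rose (73.9%) and 0 fell, beside 8.87% and 6.73% of all probe sets. All 23 were above 0, and the median was 1.12. In H3del 0 of the 23 passed by limma, beside 5.66% of all probe sets higher, with 3 higher and 0 lower at an unadjusted p under 0.05. There 20 of the 23 were above 0, and the median was 0.22. The H4del arrays of all 17 lay above the H4WT arrays, which held for all 50 members called higher in H4del, so nothing about snoRNA genes is read from it. The mean signals of the 23 genes ran from 22.6 to 95.2 in H4WT, with a median of 39.4, and from 44.8 to 279 in H4del, with a median of 131. After quantile normalization 7 of 23 (30.4%) were called higher, against 6.7% of all probe sets, with a median of 0.83 and 22 above 0. With the low end of the arrays aligned 16 (69.6%) were called higher, against 7.26% of all probe sets. Within day 2 and day 4 the median was 0.86 and 1.39. The 34 snoRNA genes outside the quiet band gave 23 higher in H4del (67.6%, beside 8.87% of all probe sets) and a median of 1.30. So snoRNA genes of other signal levels rose too.

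SNR31, a guide for pseudouridine formation in ribosomal RNA, read 184.8, 156.6 and 77.6 on the H4del arrays and 46.1, 7.0 and 17.8 on the H4WT arrays. Its change was 1.99 ± 0.38 (adjusted p = 0.00344), with no overlap, although the arrays of each group spread widely. SNR34, of the same class, had 166.5, 210.5 and 294.7 against 73.8, 81.4 and 49.5, a change of 1.49 ± 0.26 (adjusted p = 0.00208). SNR38, a guide for ribose methylation, had the largest change of the class, 2.18 ± 0.49 (adjusted p = 0.00894), with H4del signals of 100.7, 171.9 and 485.1 and H4WT signals of 37.7, 13.4 and 55.3. The annotation places it within TEF4, and whether its probe set also detects TEF4 RNA was not tested. SNR46 had 1.79 ± 0.45 (adjusted p = 0.0154), and that call was lost without H4WT replicate 2 (adjusted p = 0.0744).

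The spliceosomal RNAs U4 (SNR14) and U6 (SNR6) had changes of 1.71 ± 0.43 (adjusted p = 0.0164) and 1.91 ± 0.59 (adjusted p = 0.0408) in H4del and of 0.30 and 0.19 in H3del. For U6 the H4WT signals were 91.4, 87.2 and 10.8, with replicate 3 far below the others, against 213.6, 216.5 and 291.6 in H4del. The SNR6 call was lost without 5 of the 6 arrays taken singly (adjusted p up to 0.133), and the SNR14 call without H4del replicate 3 or H4WT replicate 2 (up to 0.0778). The 9 tRNA genes had 0 calls in either deletion, with changes of 0.04 to 0.77 in H4del and of -0.84 to 0.50 in H3del. The 10 ribosomal RNA control probe sets were also higher on the H4del arrays, at mean log2 signals of 10.5 to 11.5 against 7.83 to 9.46 on the H4WT arrays. They were higher on average in H3del too, at 8.73 to 10.1 against 7.38 to 9.21 on the H3WT arrays. What the shift in H4del contributes to the snoRNA values was not tested.

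**Figure D4:**
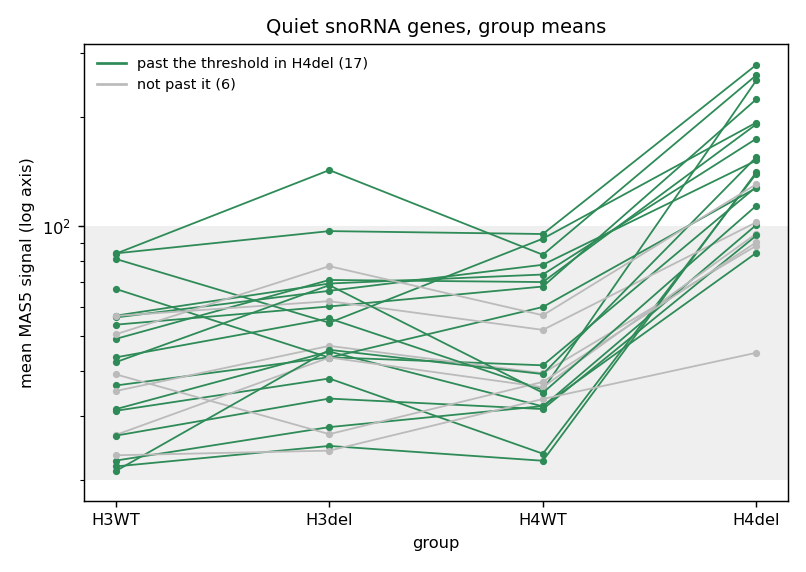
Mean signal (log axis, linear MAS5 units) of each of the 23 quiet snoRNA genes in the 4 groups, 1 line per gene, green for the 17 past an adjusted p of 0.05 in H4del and grey for the other 6, with the band of 20 to 100 shaded. From H3WT to H3del 20 of the 23 genes had a log2 fold change above 0 (median 0.22), and from H4WT to H4del all 23 had one (median 1.12).

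Without the snoRNA, snRNA and tRNA genes 31 members rose in H4del, all of them protein-coding (14.2% of 219, beside 8.87% of all probe sets). After quantile normalization 13 protein-coding members (5.94%) were higher and 7 lower, with a median of -0.08, a share below the 6.7% of all probe sets. SPO75 again changed most, with 477.7, 683.1 and 484.8 on the H4del arrays against 90.6, 91.2 and 78.1 on the H4WT arrays, a change of 2.43 ± 0.21 (adjusted p = 4.57e-06) and no overlap. SAE3 read 220.6, 252.3 and 236.9 against 46.5, 39.0 and 33.8, a change of 2.17 ± 0.33 (adjusted p = 0.000758), and its second probe set gave 2.24 (adjusted p = 3.34e-05). RNP1, an RNA-binding protein, read 349.3, 499.7 and 342.8 against 97.0, 95.1 and 51.2, a change of 2.10 ± 0.25 (adjusted p = 0.000126). None of these had overlapping groups, and all kept their calls whichever array was left out.

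IRC15 and MOR1 completed the 10 largest rises without overlap in H4del, at 1.79 ± 0.50 (adjusted p = 0.0274) and 1.56 ± 0.45 (adjusted p = 0.0306). IRC15 overlaps CTF19 in the annotation, and its signals of 71.2, 67.5 and 221.9 in H4del and 6.8, 9.4 and 52.4 in H4WT show 1 high array in each group, both of day 4. Each call was lost without any of 3 of the 6 arrays, for IRC15 without H4del replicate 3, H4WT replicate 1 or H4WT replicate 2 (adjusted p up to 0.106) and for MOR1 without H4del replicate 2 or 3 or H4WT replicate 1 (up to 0.128). Neither passed after quantile normalization (adjusted p = 0.099 and 0.0667), and the same held for SNR46, SNR6 and SNR14 (0.0645, 0.0695 and 0.0524). The sporulation list had 3 rises among 11 in H4del (SPO75, LOH1 and SPO74), with a median of 0.72. Early meiosis had 3 among 11 (SAE3, SPO13 and REC102), with a median of 0.48. Over all probe sets 8.87% rose in H4del. The SPO74 call (0.76 ± 0.23, adjusted p = 0.0389) was lost without any of 4 of the 6 arrays and that of REC102 (0.91 ± 0.29, adjusted p = 0.0480) without any of them, with adjusted p up to 0.151 and 0.139. SPO74 also did not pass with the hybridization day as a block (adjusted p = 0.0614). After quantile normalization 1 of each list was higher, against 6.7% of all probe sets.

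The 3 members that were lower in H4del were all genes of the mitochondrial genome. COX3, a subunit of cytochrome c oxidase, read 6.6, 6.1 and 1.9 on the H4del arrays against 106.4, 47.9 and 50.1 on the H4WT arrays, a change of -1.91 ± 0.30 (adjusted p = 0.000979). COX2, another subunit, had 4.7, 4.6 and 8.2 against 46.6, 24.2 and 26.9, a change of -1.10 ± 0.21 (adjusted p = 0.00374). COB, the cytochrome b gene, had 2.1, 11.1 and 0.7 against 77.8, 16.1 and 52.3, a change of -1.51 ± 0.45 (adjusted p = 0.0364). No group overlapped, and the H4del signals were at or under the level of the negative controls. The COB call was lost without any of 5 of the 6 arrays (adjusted p up to 0.138), and those of COX2 and COX3 were kept. The fourth quiet mitochondrial gene, AI5_ALPHA, had -0.55 (adjusted p = 0.223), and with the low end of the arrays aligned all 4 were called lower.

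There were 17 members that rose in both deletions, which is 33.3% of the H3del rises, 34% of the H4del rises and 54.8% of the 31 protein-coding H4del rises. They were 6.61% of the members, and over all probe sets 179 (1.93%) were higher in both. After quantile normalization 5 members (1.95%) were higher in both, against 1.29% of all probe sets, and with the low end of the arrays aligned 12 (4.67%), against 1.46%. Both wild types helped to choose the members, so nothing is read from these differences. A further 170 members passed in neither deletion. The 10 with the largest smaller rise were SPO75, RNP1, CTF13, SRL4, SAE3, ECM10, LOH1, SIP4, FCY22 and SPO13. CTF13, a subunit of the kinetochore's CBF3 complex, read 92.7, 149.0, 71.7 and 115.5 on the H3del arrays against 25.3, 15.6, 21.5 and 31.0, and 209.4, 189.9 and 117.0 on the H4del arrays against 46.4, 48.9 and 51.5. Its changes were 1.60 ± 0.23 (adjusted p = 0.000402) and 1.49 ± 0.26 (adjusted p = 0.00237), with no overlap in either. ECM10, a mitochondrial Hsp70 chaperone, had 1.26 ± 0.21 (adjusted p = 0.00121) and 1.08 ± 0.24 (adjusted p = 0.00862), and FCY22, a relative of the purine-cytosine permeases, 1.09 ± 0.23 (adjusted p = 0.0085) and 0.98 ± 0.27 (adjusted p = 0.0241). SRL4 had 1.41 ± 0.25 in H4del (adjusted p = 0.00222). In H4del the calls of LOH1 (adjusted p = 0.0248), SIP4 (0.0364), SPO13 (0.0182) and FCY22 were each lost without at least 2 of the 6 arrays taken singly, with adjusted p up to 0.0787, 0.123, 0.0631 and 0.115. After quantile normalization none of these 4 passed in H4del (adjusted p = 0.0677, 0.0953, 0.156 and 0.148), and FCY22 did not pass with the hybridization day as a block (0.0766).

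**Figure D5:**
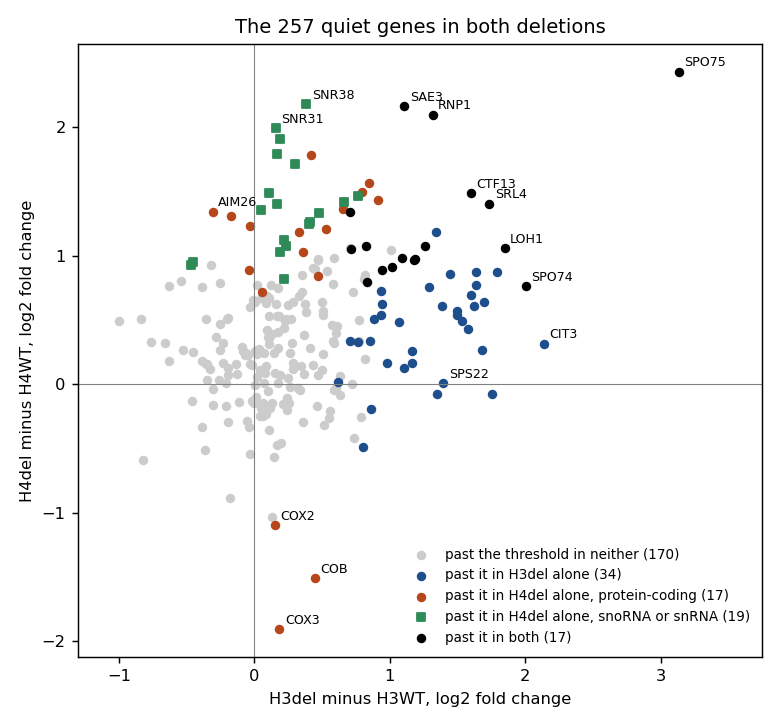
Log2 fold change of each of the 257 quiet genes in H3del (x axis) and H4del (y axis), on the scale log2(signal + 16.9), with black for the 17 past an adjusted p of 0.05 in both, blue for 34 in H3del alone, orange for 17 protein-coding and green squares for 19 snoRNA or snRNA genes in H4del alone, and grey for 170 in neither. SPO75 lies farthest out on both axes, and COX2, COB and COX3 lie below 0 on the H4del axis.

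The difference between the deletions was tested for each gene as the H3 effect minus the H4 effect. Of the members 6 had a positive difference (2.33%) and 5 a negative one (1.95%), against 1.71% and 1.23% of all probe sets, shares near the background. A positive difference can come from a rise in H3del or from a fall in H4del. With the replicate number as a block the counts were 14 and 13, against 6.36% and 4.59% of all probe sets. SPS22, a spore wall protein, read 154.1, 156.0, 134.2 and 172.4 on the H3del arrays against 47.2, 64.1, 32.6 and 52.0, and 90.4, 71.0 and 62.6 on the H4del arrays against 83.4, 60.6 and 78.2. Its H4 groups overlapped, and the difference was 1.39 ± 0.30 (adjusted p = 0.0221). CIT3 differed by 1.82 ± 0.42 (adjusted p = 0.0312), with H4del signals of 149.1, 84.6 and 129.8 against 67.7, 78.4 and 142.6, and SPO74 by 1.24 ± 0.31 (adjusted p = 0.0433). COX3 differed by 2.09 ± 0.39 (adjusted p = 0.0126) and COX2 by 1.25 ± 0.28 (adjusted p = 0.027). Their H3del changes were 0.18 and 0.15, and their H4del changes were falls of -1.91 and -1.10.

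The members with a negative difference were 3 snoRNA genes and 2 small or little-known protein-coding genes. SNR34 differed by -1.38 ± 0.34 (adjusted p = 0.0428), SNR42 by -1.41 ± 0.36 (adjusted p = 0.0487) and SNR43 by -1.40 ± 0.34 (adjusted p = 0.0374). For SNR43 the H3del signals were 53.6, 43.0, 37.7 and 39.6 against 83.0, 74.3, 50 and 61.5 in H3WT, which overlap, and the H4del signals 120.6, 162.7 and 99.6 against 67.4, 36.7 and 75.7. AIM26 differed by -1.65 ± 0.36 (adjusted p = 0.0245) and YKL183C-A by -1.48 ± 0.38 (adjusted p = 0.0479). Of the 10 differences named here that of COX3 was kept whichever of the 14 arrays was left out, and the other 9 were each lost without at least 2 of them (adjusted p up to 0.109).

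Members that neighbour each other on a chromosome formed 11 pairs. In YKL222C and MCH2, near the left end of chromosome XI, both genes rose in H4del (1.03 ± 0.27 and 1.34 ± 0.20, adjusted p = 0.0182 and 0.000801), and MCH2, a relative of monocarboxylate permeases, also rose in H3del (0.71 ± 0.18, adjusted p = 0.0221). In the other 10 pairs at most 1 gene was called in a deletion. The 19 members that overlap another annotated gene and the 11 with more than 1 probe set are less certain in what their signal reports, and 3 of the 19 are snoRNA genes.

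The counts of members under the other settings are read against their own backgrounds. With the replicate number as a block 59 members were higher and 2 lower in H3del, where 8.71% and 4.2% of all probe sets were, and 71 and 5 in H4del, where 14.4% and 12.9% were. Without the arrays of day 4 the H3del counts were 43 and 0 (6.26% and 2.53% of all probe sets) and the H4del counts 41 and 3 (10.6% and 10.4%). With the low end of the arrays aligned 39 members were higher and 0 lower in H3del, against 4.6% and 1.87%. After quantile normalization the H3del split of the members was 28 and 3. The filter on dim probe sets left 6 of the 257 members, 5 of them higher in H3del and 4 in H4del. Among the probe sets it kept 5.21% were higher and 2.46% lower in H3del, and 7.79% and 9.67% in H4del. A member could pass that filter through the group in which it was high, and nothing is read from their share.

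For the H3 effect minus the H4 effect the counts of members with a positive and a negative difference were also 14 and 13 with the day as a block (6.92% and 4.57% of all probe sets). They were 8 and 7 after quantile normalization (2.06% and 2.09%), 9 and 7 with the low end of the arrays aligned (2.09% and 1.42%), 3 and 4 without day 4 (4.54% and 2.47%) and 1 and 0 under the filter (2.4% and 1.28%).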

How the data were processed

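Total RNA of 14 samples was measured on Affymetrix yeast arrays. The deposited values are linear signal intensity per probe set, and the submitters' processing notes name MAS5 (version: not given in the sources used here). All 14 columns of signals were used. Of 9335 probe sets 60 controls were left out, and 9275 were fitted, of which 6504 had 1 gene, 328 had several and 2443 had none in the platform annotation. All 5656 genes were matched by Entrez ID to RefSeq (assembly R64) for type, length and neighbours. The files name no genome build, and no coordinates are given.

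Group means of log2(signal + 16.9), where 16.9 is the 10th percentile of all signals, were fitted with limma 3.58.1 in R 4.3.3 (empirical Bayes with a variance trend, no filter on dim probe sets). P-values were adjusted by Benjamini-Hochberg over all 9275 probe sets. Tables and figures used Python 3.11.15, pandas 2.3.3 and matplotlib 3.10.9. The fit was tested on simulated data. The number of arrays limits the precision.

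The members and gene lists were chosen with earlier results of these data known. Genes named are the 10 largest rises and 5 largest falls without overlap in each deletion, the 5 largest differences each way, the 10 largest shared rises, up to 3 genes of each list with at least 3 calls, and the genes nearest the bounds. Others, among them members of short lists and neighbours, were named after their values were seen.

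Arrays with the same replicate number deviated together, with correlations of 0.205 to 0.614 over 4 H3 pairs and 0.156 to 0.415 over 3 H4 pairs, and most such pairs shared a hybridization day. The replicate number was therefore also fitted as a block within each histone's arrays. Other alternatives were an offset of 1 or 50, a brightness filter at the 30th percentile, quantile normalization, no variance trend, the day as a block, each array left out, other choices of probe set and a narrower band (30 to 70, and 700 to 1400). For each comparison only its own arrays were left out singly. Aligning the low end of each array, leaving out the arrays of day 4, and leaving out snoRNA, snRNA and tRNA genes were chosen after seeing the data.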

Additional observations from a re-analysis of the deposited data

Results flagged for a closer look

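For 11 members the effect of the H3 deletion and that of the H4 deletion differed by limma's test of the difference, adjusted over all probe sets. On the log2 scale the H3 effect minus the H4 effect was 2.09 for COX3, 1.82 for CIT3, 1.39 for SPS22, 1.25 for COX2, 1.24 for SPO74 and 1.14 for the glycerol transporter gene STL1, whose changes were 1.58 ± 0.19 in H3del and 0.43 ± 0.22 in H4del. It was -1.65 for AIM26, -1.48 for YKL183C-A, -1.41 for SNR42, -1.40 for SNR43 and -1.38 for SNR34.

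Of 88 groups of 4 arrays tested for an array far from the others 1 had one. SPO13 had a signal of 9.1 in H3WT replicate 3, while the other three H3WT arrays lay between 32.9 and 34.6. About 5 in 100 such groups are flagged by chance.

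Probe sets without an annotated gene also held rises. Of the 694 at 20 to 100 in both wild types 52 (7.49%) were higher in H3del and 130 (18.7%) in H4del, with medians of 0.16 and 0.48. Over all probe sets 5.66% and 8.87% were higher, and since the wild types chose these 694 too nothing is read from the difference. After quantile normalization 18 (2.59%) and 53 (7.64%) were higher, against 4.29% and 6.7% of all probe sets, with medians of -0.08 and 0.11.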

How the results depend on the processing

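Named genes gave 54 tested results and 888 alternatives, of which 698 kept their call, 190 lost it and 0 turned direction. Calls were lost by 16 results under quantile normalization, 14 under an offset of 1, 15 without the arrays of day 4, 4 with the low end aligned, 2 with the day as a block (FCY22 and SPO74 in H4del) and 1 without the variance trend. For the changes below the cause was not tested, except that the brightness filter and the narrower band test fewer members.

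Of quiet genes higher in H3del (51) 5 were counted under the filter, 28 after quantile normalization and 17 in the narrower band, and 35 to 50 with single arrays left out. Lower counts (0) became 1 with an offset of 50, 3 after quantile normalization, 3 with the day and 2 with the replicate number as a block, which changed no call of a named gene. Higher in H4del (50) became 4, 20 and 17 under the same 3 settings, 31 without snoRNA, snRNA and tRNA genes, and 28 to 53 with arrays left out. Lower in H4del (3) became 0 under the filter, 7 after quantile normalization, 5 with the replicate block, 6 with the low end aligned and 1 in the narrower band (2 to 4 with arrays left out). Differences between deletions (11) became 5 and 17 with offsets of 1 and 50, 1 under the filter, 27 with either block, 7 without day 4 and 7 in the narrower band (2 to 14).

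Genes quiet in H4WT gave 68 rises in H3del, and 9 under the filter, 39 after quantile normalization and 32 in the narrower band (48 to 66 with arrays left out). Genes quiet in H3WT gave 65 in H4del, and 17, 34 and 37 under these settings and 42 without the small RNA genes (39 to 66). Calls among mid-level genes in either direction were 96 in H3del, and 330 with the day block, 242 with the replicate block, 158 without day 4 and 29 in the narrower band (59 to 100). In H4del they were 285, and 497, 571, 441 and 133 (142 to 360). Signals this close to the negative controls limit what the quiet genes can show, and 6 of the 257 passed the brightness filter.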

Other observations

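Other members that rose, chosen after their values were seen, included further genes linked to spore formation and peroxisomes. In H3del RRT12, a protease-like gene of the spore wall, had a log2 fold change of 1.53 ± 0.25 (limma, adjusted p = 0.00108) and PFS1, of prospore membrane formation, 1.16 ± 0.17 (adjusted p = 0.000545). RIM4, an RNA-binding regulator of meiosis, had 1.34 ± 0.34 (adjusted p = 0.0251) and was the single call of 51 whose arrays overlapped. The peroxisomal import genes PEX18 and PEX9 had 1.44 ± 0.28 (adjusted p = 0.00406) and 0.94 ± 0.20 (adjusted p = 0.0085). In H4del these 5 genes had changes of 0.49, 0.16, 1.19, 0.86 and 0.63, none past the threshold. MUM3, of spore wall formation, rose in H4del with 1.37 ± 0.22 (adjusted p = 0.00139) and had 0.65 in H3del (adjusted p = 0.0547).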
